A study of Rattus norvegicus with 12 samples.

Results

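The interleukin, chemokine and TNF superfamily genes of cultured rat islet cells were examined after inhibition of mt-tRF-LeuTAA, a small RNA cut from a leucine tRNA of the mitochondrial genome. Genes were taken by symbol, namely every detected gene whose name begins with Il, Ccl, Cxcl, Ccr or Cxcr and a number, or with Tnfsf or Tnfrsf. Of 92 such genes, 9 were left out by name (Il19, Il20, Il24, Il1rl1, Il18r1, Il18rap, Cxcl1, Cxcl12 and Ccl2), so that 83 of the 13733 genes of the table remained. They comprised 13 interleukin ligands, 4 interleukin antagonists, decoys or binding proteins, 26 interleukin receptor chains, 7 CC and 9 CXC chemokines and 3 chemokine receptors. There were also 7 TNF superfamily ligands and 13 TNF receptor superfamily members, 3 of which were classed here as death-domain receptors. The remaining member, Il4i1, was matched by its symbol only, since it encodes a secreted L-amino acid oxidase and not a cytokine.

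The cells were dispersed pancreatic islets of adult Wistar rats aged 3 months, male per the study's methods, with no genetic modification named in the labels. Each of 6 libraries came from cells given 30 pmol of antisense oligonucleotides against the fragment (anti-mt-tRF-LeuTAA), and each of 6 others from cells given scrambled oligonucleotides (anti-control), both by lipid transfection and followed by 72 h of culture. Per the study, each replicate holds the islets of 1 rat, and all cell types of the islet were sequenced together. The transfection itself was common to both groups, and untransfected cells were not analysed here.

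Interleukins and chemokines are secreted proteins that signal between immune cells and the cells of a tissue, and islet endocrine, endothelial and stromal cells also produce and sense some of them. Interleukin-1 and TNF receptors act mainly through the transcription factor NF-kB, which binds kB sites in the promoters of many chemokine genes, whereas most other interleukin receptors act through JAK kinases and STAT proteins. In islets, interleukin-1 signalling is known for impairing insulin secretion and for inducing chemokines in endocrine cells.

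After inhibition, 12 of the 83 genes (14.5%) were higher and 1 (1.2%) was lower at an adjusted p of at most 0.05 by limma without a replicate block. Among all genes, 10.9% were higher and 4.65% were lower by that rule. All 12 higher genes rose at least 2-fold, so 14.5% of the members were called with that size, against 5.82% of all genes. The higher genes were the ligands Il17c, Il23a and Tnfsf13b, the receptor chains Il20rb, Il1rl2, Il17rb and Il9r, the soluble decoy Il22ra2, the TNF receptors Tnfrsf18, Tnfrsf4 and Tnfrsf25, and Il4i1. None of the 16 chemokine ligands or 3 chemokine receptors passed. The lower gene was Il20ra. The 6 libraries of each group did not overlap for 9 higher members and for 1 lower member, and this was so for 7.92% and 2.27% of all genes.

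The median log2 fold change, given throughout as anti-mt-tRF-LeuTAA minus anti-control, was 0.05 over the 83 members and -0.04 over all genes. Quantile normalization moved the median of the members to -0.20 and that of all genes to -0.07. Most members were scarce, and 51 of 83 had a mean level below the 25th percentile of all genes. Libraries held 16.4 to 23.4 M reads in listed genes, so 1 read stood for less than 0.1 CPM (reads scaled to a library of 1 M). In such bulk RNA, a change in the number of cells of a type and a change in the RNA per cell cannot be told apart.

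**Figure D1:**
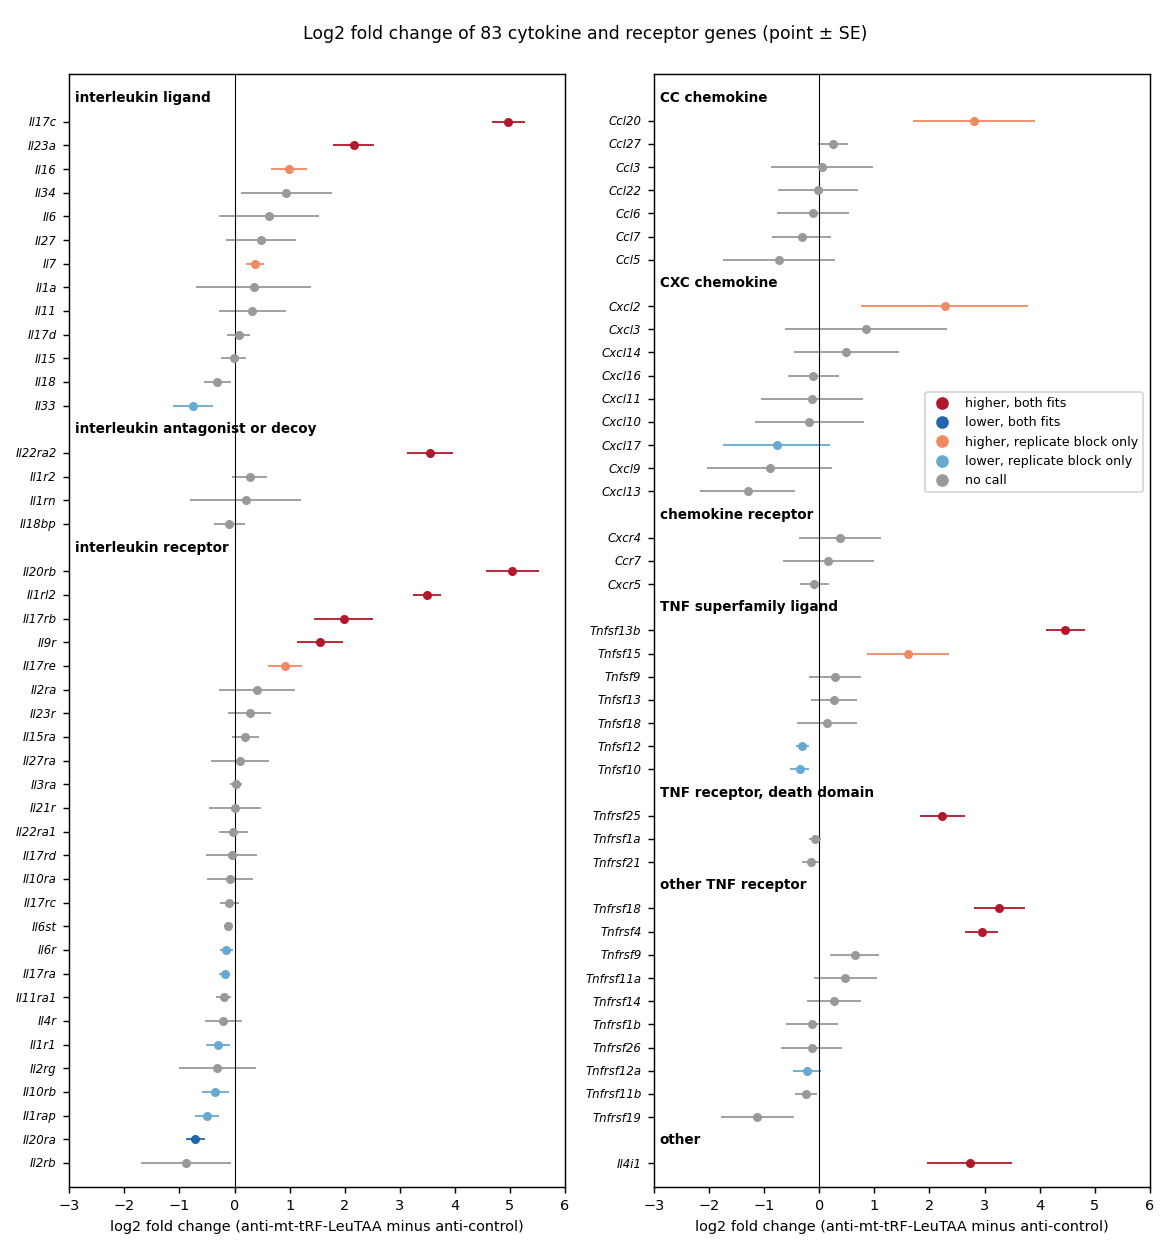
Log2 fold change of each of the 83 genes (horizontal axis, anti-mt-tRF-LeuTAA minus anti-control, point ± SE of the limma fit without block, n = 6 per group), grouped by role. Points to the right are higher after inhibition; 12 genes (dark red) were higher and 1 (dark blue) was lower in both fits, and chemokines had wide errors.

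The labels do not state that a number marks the same rat in both groups, but most libraries correlated best with their own number. A fit with the number as a block was therefore run as well. Libraries of the same number are treated here as 1 rat and called a pair. With the block, 18 members (21.7%) were higher, against 17.6% of all genes, and 11 (13.3%) were lower, against 17.7% of all genes. All 13 genes called without the block were among them, and of the 16 others 6 were higher and 10 lower. The lower count fell to 5 without pair 3 or pair 5 and to 3 (Il20ra, Il1rap and Il17ra) without pair 6, so most of these calls depended on single pairs. Of the higher calls, that of Il7 was lost without pair 2, 5 or 6, that of Il17rb without pair 5, and those of Il7, Il17re and Il17rb without the libraries numbered 1 and 2. Il10rb, Il6r and Tnfrsf12a, receptor chains for interleukins 10 and 6 and for TWEAK, were among the lower genes, with log2 fold changes of -0.35, -0.15 and -0.22. A total of 54 members passed in neither fit, with log2 fold changes of -1.30 to 0.94. Their SEs were 0.08 to 1.47 (median 0.51) without the block and 0.05 to 0.63 (median 0.25) with it.

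Promoters are shown for 6 genes that carry the patterns described here. Il17c and Il1rl2 were the higher members with the smallest adjusted p. The chemokines Ccl20, Cxcl2, Cxcl10 and Cxcl11 were chosen after their values were seen, being among the chemokines highest in libraries 1 and 2. They were also the only chemokine members found to hold a kB match. Ccl7 and Cxcl9, highest in the same libraries, had promoters without a kB match and are not shown. Sequences are from RefSeq (build GRCr8), 250 bases before to 50 bases after the annotated start, 5′ to 3′, with matches to the kB consensus in capitals. They lie at chr9:91836909-91837208, plus strand (Ccl20), chr14:17467206-17467505, minus strand (Cxcl2), chr14:15988816-15989115, plus strand (Cxcl10), chr14:15973478-15973777, plus strand (Cxcl11), chr19:67393185-67393484, plus strand (Il17c) and chr9:50087302-50087601, plus strand (Il1rl2).
Ccl20: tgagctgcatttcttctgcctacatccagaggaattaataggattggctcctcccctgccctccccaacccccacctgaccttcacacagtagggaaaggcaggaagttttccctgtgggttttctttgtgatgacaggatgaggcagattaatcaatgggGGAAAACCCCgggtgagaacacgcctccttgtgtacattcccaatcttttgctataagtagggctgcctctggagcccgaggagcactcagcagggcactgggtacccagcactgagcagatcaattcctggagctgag
Cxcl2: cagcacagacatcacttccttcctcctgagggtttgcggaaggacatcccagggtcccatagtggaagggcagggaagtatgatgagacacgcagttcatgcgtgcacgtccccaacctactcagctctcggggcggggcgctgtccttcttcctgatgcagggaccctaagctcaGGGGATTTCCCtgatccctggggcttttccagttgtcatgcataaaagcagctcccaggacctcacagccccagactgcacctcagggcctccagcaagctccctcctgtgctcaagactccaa
Cxcl10: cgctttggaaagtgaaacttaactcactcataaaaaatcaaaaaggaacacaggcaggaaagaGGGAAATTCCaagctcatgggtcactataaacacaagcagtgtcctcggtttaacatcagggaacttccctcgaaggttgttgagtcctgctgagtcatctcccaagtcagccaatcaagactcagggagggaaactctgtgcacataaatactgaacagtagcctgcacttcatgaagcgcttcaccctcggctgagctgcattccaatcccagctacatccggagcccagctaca
Cxcl11: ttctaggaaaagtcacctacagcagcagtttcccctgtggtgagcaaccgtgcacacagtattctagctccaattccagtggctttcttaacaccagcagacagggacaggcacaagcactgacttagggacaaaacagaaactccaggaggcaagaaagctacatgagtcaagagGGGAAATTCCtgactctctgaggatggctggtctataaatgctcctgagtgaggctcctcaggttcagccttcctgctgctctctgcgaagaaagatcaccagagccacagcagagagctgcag
Il17c: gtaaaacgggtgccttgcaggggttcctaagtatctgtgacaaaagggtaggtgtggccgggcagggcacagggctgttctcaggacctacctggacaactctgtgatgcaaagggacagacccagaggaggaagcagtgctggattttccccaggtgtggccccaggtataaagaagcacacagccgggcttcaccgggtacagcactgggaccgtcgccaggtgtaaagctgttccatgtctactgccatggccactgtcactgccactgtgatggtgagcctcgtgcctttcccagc
Il1rl2: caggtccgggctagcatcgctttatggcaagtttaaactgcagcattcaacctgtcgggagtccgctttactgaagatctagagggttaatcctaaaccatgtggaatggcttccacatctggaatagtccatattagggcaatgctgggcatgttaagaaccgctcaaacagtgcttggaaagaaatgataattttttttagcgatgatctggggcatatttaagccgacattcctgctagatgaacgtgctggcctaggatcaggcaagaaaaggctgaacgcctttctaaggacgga
The capitals begin 89 bases before the start in Ccl20, 74 in Cxcl2 (2 overlapping matches), 187 in Cxcl10 and 74 in Cxcl11. The windows of Il17c and Il1rl2 held no match to the kB consensus or to the 3 other motifs searched.

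Motifs were searched on both strands of these windows as a description of the letters only. The kB consensus was present in 4.18% of all 33469 promoters and in 18.8% of the 69 promoters of members, of which 63 had at least 1 promoter matched by symbol. The AP-1 motif TGANTCA was present in 7.33% of all promoters and 15.9% of those of members, the interferon-response ISRE core in 3.92% and 11.6%, and the STAT-binding GAS motif TTCNNNGAA in 8.87% and 8.70%. Overlaps between motifs were not removed. Of the 12 higher members, 10 had a promoter in the table. Among these, Il4i1 alone held a kB match and Tnfsf13b alone an ISRE core, and AP-1 or GAS were in 0.

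Among interleukin ligands, Il17c and Il23a rose. Il17c, an epithelial member of the interleukin-17 family, was present at 1.20, 1.77 and 2.54 CPM (lowest, median and highest library) in anti-mt-tRF-LeuTAA cells, against 0, 0 and 0.0511 CPM in anti-control cells. A single anti-control library held 1 read and the other 5 held 0, so the groups did not overlap. The log2 fold change was 4.97 (SE 0.30, adjusted p = 1.43e-07), but this size depends on the prior count added before the logarithm and was 2.93 with a prior count of 5. Summed over libraries, 209 reads stood against 1 read, a ratio of 214 with an exact 95% interval of 38 to 8490 that covers counting error only. Il23a, the specific subunit of interleukin-23, had 7.77, 9.91 and 17.6 CPM in anti-mt-tRF-LeuTAA cells and 0.807, 2.31 and 5.02 CPM in anti-control cells. The groups did not overlap, and the log2 fold change was 2.16 (SE 0.37, adjusted p = 0.00119).

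The most abundant interleukin ligand was Il33, an alarmin kept in the nucleus of endothelial and stromal cells. It had 14.7, 37.3 and 65.6 CPM in anti-mt-tRF-LeuTAA cells, against 36.0, 62.3 and 124 CPM in anti-control cells, with widely overlapping groups and a log2 fold change of -0.75 (SE 0.36, adjusted p = 0.199, and 0.0489 with the block). Il16, a chemoattractant for CD4 cells, had a log2 fold change of 0.99 (SE 0.33) at 1.56, 2.49 and 3.51 CPM in anti-mt-tRF-LeuTAA cells and 0.535, 1.44 and 2.03 CPM in anti-control cells. Its adjusted p was 0.0612 without and 0.00861 with the block, and it was higher in 6 of 6 pairs. Il7, a growth factor of lymphocytes, had a log2 fold change of 0.37 (SE 0.16, adjusted p = 0.139, and 0.0277 with the block), at 7.40, 8.62 and 10.6 CPM in anti-mt-tRF-LeuTAA cells and 5.21, 6.05 and 9.39 CPM in anti-control cells. The remaining 8 ligands, among them Il6 and Il1a, passed in neither fit.

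The genes of the interleukin-1 receptor family moved in different directions. Il1rl2, the receptor chain for interleukin-36, had 64.5, 119 and 126 CPM in anti-mt-tRF-LeuTAA cells and 6.84, 7.73 and 18.8 CPM in anti-control cells. Every anti-mt-tRF-LeuTAA library lay above every anti-control library, and the log2 fold change was 3.50 (SE 0.26, adjusted p = 7.38e-07). Il1rap, the accessory chain that Il1rl2 and Il1r1 share, had 7.97, 11.1 and 16.3 CPM in anti-mt-tRF-LeuTAA cells, against 10.7, 15.7 and 22.5 CPM in anti-control cells. It was lower in 6 of 6 pairs with a log2 fold change of -0.50 (SE 0.21), which passed only with the block (adjusted p = 0.144, and 0.00146 with the block). Il1r1, the signalling receptor for interleukin-1, was the member with the most reads, at 1193, 1777 and 2299 CPM in anti-mt-tRF-LeuTAA cells and 1481, 2223 and 2836 CPM in anti-control cells. Its log2 fold change was -0.30 (SE 0.21, adjusted p = 0.411, and 0.0249 with the block), again lower in 6 of 6 pairs.

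The chains that form the receptors of interleukins 19, 20 and 24 moved in opposite directions. Il20rb had 9.69, 10.9 and 14.0 CPM in anti-mt-tRF-LeuTAA cells and 0.0576, 0.383 and 0.9003 CPM in anti-control cells, and its log2 fold change was 5.04 (SE 0.48, adjusted p = 7.08e-06). Its partner Il20ra, the only member called lower without the block, had 5.82, 10.7 and 11.99 CPM in anti-mt-tRF-LeuTAA cells and 13.2, 15.9 and 19.2 CPM in anti-control cells. Neither gene had overlapping groups, and Il20ra changed by -0.71 on the log2 scale (SE 0.18, adjusted p = 0.0156). Il22ra1, the other chain with which Il20rb pairs, was named once its values were known, and its log2 fold change was -0.02 (SE 0.26, adjusted p = 0.968). Il22ra2, a soluble protein that binds interleukin-22 and blocks it, had 1.17, 1.55 and 2.31 CPM in anti-mt-tRF-LeuTAA cells and 0, 0.0961 and 0.325 CPM in anti-control cells. Its groups were apart as well, with a log2 fold change of 3.54 (SE 0.42, adjusted p = 4.93e-05).

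Receptors of the interleukin-17 family and of interleukin-9 changed less clearly. Il17rb, the receptor chain for interleukin-25, had 0.519, 1.02 and 3.3003 CPM in anti-mt-tRF-LeuTAA cells, against 0.0594, 0.228 and 0.708 CPM in anti-control cells. The groups overlapped, and the log2 fold change was 1.98 (SE 0.54, adjusted p = 0.0251). Il9r, the interleukin-9 receptor, had 0.978, 1.46 and 2.19 CPM in anti-mt-tRF-LeuTAA cells and 0.119, 0.516 and 0.980 CPM in anti-control cells, with a log2 fold change of 1.55 (SE 0.41, adjusted p = 0.0224). Both genes were higher in 6 of 6 pairs, but both calls ended with quantile normalization (adjusted p = 0.263 for Il17rb and 0.194 for Il9r) and without the libraries numbered 1 and 2 (0.0926 and 0.159). Il17re, the receptor chain that binds interleukin-17C, had 1.70, 3.51 and 4.38 CPM in anti-mt-tRF-LeuTAA cells, against 0.980, 1.45 and 3.29 CPM in anti-control cells. It had a log2 fold change of 0.92 (SE 0.31, adjusted p = 0.0660, and 0.0122 with the block). For its co-receptor Il17ra, also named once its values were known, the log2 fold change was -0.18 (SE 0.10, adjusted p = 0.289, and 0.0159 with the block).

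Within the TNF superfamily, Tnfsf13b rose. It encodes BAFF, a survival factor of B cells, and had 4.00, 5.07 and 5.99 CPM in anti-mt-tRF-LeuTAA cells, against 0.0472, 0.204 and 0.409 CPM in anti-control cells. The groups were far apart, with a log2 fold change of 4.46 (SE 0.35, adjusted p = 1.31e-06). Tnfsf15, the ligand of the death receptor Tnfrsf25, had 1.57, 3.06 and 15.2 CPM in anti-mt-tRF-LeuTAA cells and 0.288, 0.693 and 4.36 CPM in anti-control cells. The groups overlapped, 5 of 6 pairs were higher, and the log2 fold change of 1.61 (SE 0.75) passed only with the block (adjusted p = 0.181, and 0.00492 with the block). Tnfsf10, the death ligand TRAIL, had 7.28, 8.64 and 14.4 CPM in anti-mt-tRF-LeuTAA cells, against 8.92, 11.7 and 15.4 CPM in anti-control cells, with a log2 fold change of -0.36 (SE 0.18, adjusted p = 0.216, and 0.0365 with the block). Tnfsf12, or TWEAK, had 8.53, 10.8 and 11.97 CPM in anti-mt-tRF-LeuTAA cells, against 11.0, 12.6 and 14.9 CPM in anti-control cells. Its log2 fold change was -0.31 (SE 0.12, adjusted p = 0.0981, and 0.0174 with the block), so both ligands were lower in 6 of 6 pairs but past the threshold only in the paired fit.

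Of the 13 TNF receptors, 3 rose. Tnfrsf4, the co-stimulatory receptor OX40, had 4.64, 9.52 and 10.8 CPM in anti-mt-tRF-LeuTAA cells and 0.664, 1.00 and 2.02 CPM in anti-control cells, with a log2 fold change of 2.95 (SE 0.30, adjusted p = 1.24e-05). Tnfrsf18, the related receptor GITR, had 1.48, 1.87 and 2.13 CPM in anti-mt-tRF-LeuTAA cells and 0, 0.157 and 0.418 CPM in anti-control cells, with a log2 fold change of 3.26 (SE 0.46, adjusted p = 0.000266) that was 2.22 after quantile normalization. Tnfrsf25, the death receptor DR3, had 1.15, 1.62 and 2.94 CPM in anti-mt-tRF-LeuTAA cells and 0.119, 0.362 and 0.743 CPM in anti-control cells, with a log2 fold change of 2.23 (SE 0.41, adjusted p = 0.00213). In none of the 3 did the groups overlap. Tnfrsf9, a further co-stimulatory receptor of T cells named once its values were known, had a log2 fold change of 0.64 (SE 0.45) and passed in neither fit (adjusted p = 0.401, and 0.111 with the block). Of 10 markers of T and NK cells, 3 were in the table (Lck, Cd4 and Cd8a), the T cell receptor-associated Cd3 chains were not, and the summed level of the 3 was 6.31 to 10.1 CPM in anti-mt-tRF-LeuTAA cells and 6.24 to 11.2 CPM in anti-control cells. In each class of TNF receptor, with or without a death domain, the most abundant member passed in neither fit. Tnfrsf21, a death receptor, had 125, 171 and 243 CPM in anti-mt-tRF-LeuTAA cells, against 145, 191 and 251 CPM in anti-control cells (log2 fold change -0.15, SE 0.16, adjusted p = 0.609). Tnfrsf11b, the decoy osteoprotegerin, had 31.2, 38.0 and 64.1 CPM in anti-mt-tRF-LeuTAA cells, against 36.6, 48.0 and 72.8 CPM in anti-control cells (log2 fold change -0.24, SE 0.19, adjusted p = 0.465, and 0.0507 with the block). Without the libraries numbered 1 and 2, it passed as lower with the block (adjusted p = 0.00325).

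**Figure D2:**
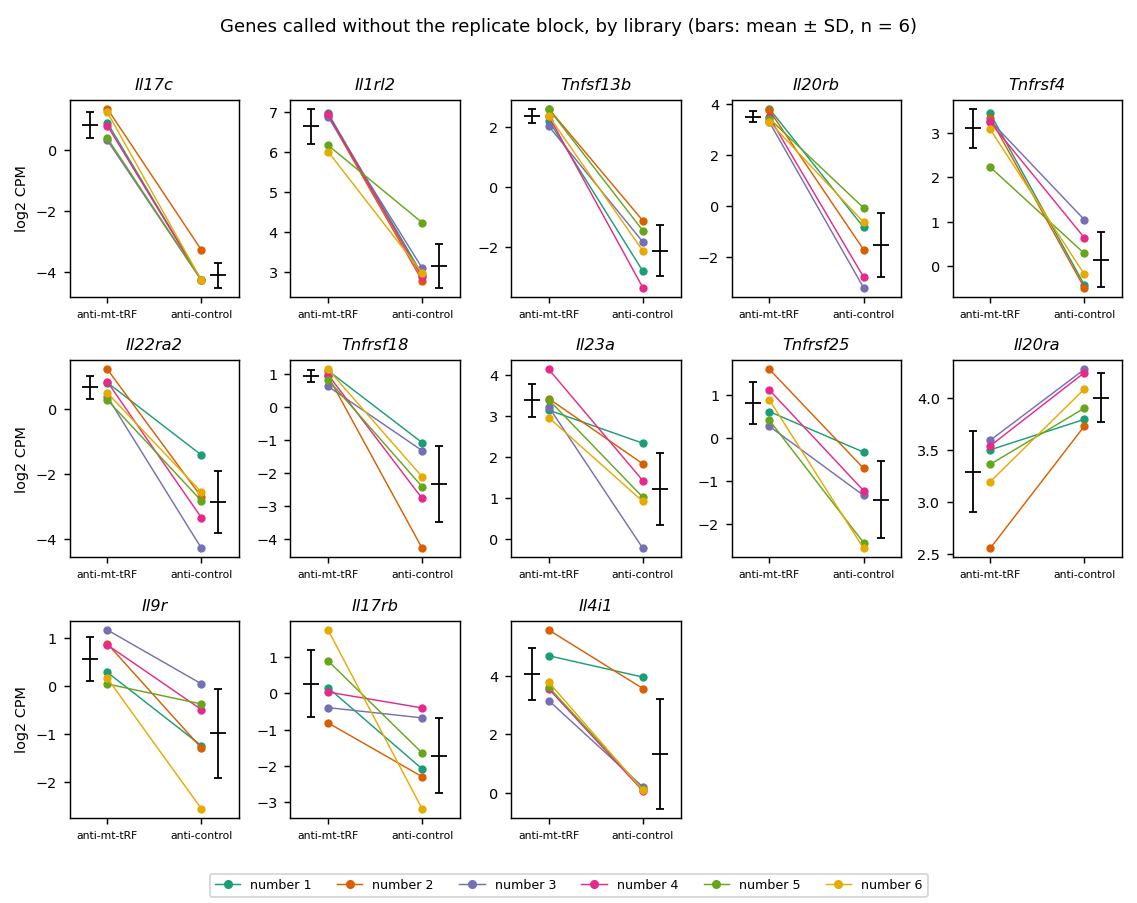
Deposited log2 CPM (vertical axis) of the 13 genes called without the block, in anti-mt-tRF-LeuTAA (left of each panel) and anti-control libraries (right). Lines join libraries of the same number and bars give mean ± SD (n = 6); every line falls to the right for the 12 higher genes, and rises for Il20ra.

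Markers of B and myeloid cells also moved with the groups. Of 5 B cell markers 3 were measured, their summed level was 5.47 to 12.7 CPM in anti-mt-tRF-LeuTAA cells and 0.270 to 5.33 CPM in anti-control cells, and Cd79b was called higher, whereas Cd79a and Ms4a1 were not in the table. Of 14 myeloid markers 13 were measured, with sums of 96.1 to 173 CPM in anti-mt-tRF-LeuTAA cells and 81.5 to 232 CPM in anti-control cells, and Cd68 and Mrc1 were called higher. The part of these cells in the rise of Tnfsf13b, Tnfrsf4 and the other immune genes was not tested. The 7 beta cell markers, dominated by insulin transcripts, summed to 88840 to 153800 CPM in anti-mt-tRF-LeuTAA cells and 82620 to 163600 CPM in anti-control cells. Among single markers of beta and exocrine cells, Pdx1 (beta cell, log2 fold change -0.68) and Epcam (duct, -0.38) were called lower and Cel (acinar, 3.23) was called higher.

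Chemokine levels varied widely between rats. For 22 of the 83 members (26.5%, against 10.3% of all genes), the libraries numbered 1 and 2 were the highest pair in both groups. These 22 included 8 of the 16 chemokine ligands. The SD between the 6 rats, taken over the mean of both groups, had a median of 0.65 log2 units over the members and 0.23 over all genes. Between the highest and the lowest rat, 20 members differed at least 10-fold, and 11 of them were chemokine ligands, although for the scarcest the size depends on the prior count.

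Cxcl10, an interferon-inducible attractant of T cells and the most abundant CXC chemokine, had 21.4, 81.6 and 480 CPM in anti-mt-tRF-LeuTAA cells, against 20.2, 52.3 and 618 CPM in anti-control cells. Libraries 1 and 2 stood at 171 and 480 CPM after inhibition and at 618 and 583 CPM in anti-control, whereas the other 4 reached at most 96.4 and 56.5 CPM. Its log2 fold change of -0.18 (SE 0.99, adjusted p = 0.931) was well within this spread. Cxcl11, a related interferon-inducible chemokine named after its values were seen, had 200 and 328 CPM in libraries 1 and 2 after inhibition and 353 and 420 CPM in those of anti-control, with 18.3 to 143 CPM and 14.3 to 122 CPM in the others. Il6, an acute cytokine also named afterwards, had 9.07 and 27.1 CPM in libraries 1 and 2 after inhibition and 13.1 and 12.3 CPM in those of anti-control, against 1.70 to 4.92 CPM and 0.297 to 2.69 CPM in the others. Ccl7, an attractant of monocytes and the most abundant CC chemokine, had 7.77, 17.4 and 51.2 CPM in anti-mt-tRF-LeuTAA cells and 7.96, 20.2 and 59.6 CPM in anti-control cells (log2 fold change -0.32, SE 0.54, adjusted p = 0.765).

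Ccl20 and Cxcl2 were higher within pairs on top of this variation. Ccl20, the ligand of Ccr6, had 0.508, 1.03 and 10.5 CPM in anti-mt-tRF-LeuTAA cells, against 0, 0.105 and 2.04 CPM in anti-control cells. It was higher in 6 of 6 pairs although the groups overlapped, and its log2 fold change of 2.81 (SE 1.11) passed only with the block (adjusted p = 0.112, and 0.000633 with the block). Without the libraries numbered 1 and 2, which was tried after seeing the data, Ccl20 also passed without the block (log2 fold change 3.28, adjusted p = 0.00453), as did Tnfsf15 (1.96, adjusted p = 0.0248). Cxcl2, an attractant of neutrophils, had 0.0508, 1.27 and 25.7 CPM in anti-mt-tRF-LeuTAA cells, against 0, 0.152 and 4.50 CPM in anti-control cells. Its log2 fold change was 2.27 (SE 1.51, adjusted p = 0.368, and 0.00173 with the block), higher in 6 of 6 pairs. The log2 fold changes of Ccl20 and Cxcl2 were 1.71 and 1.27 after quantile normalization. Cxcl17, a mucosal chemokine, had 0.914, 7.16 and 29.5 CPM in anti-mt-tRF-LeuTAA cells, against 1.43, 11.8 and 43.9 CPM in anti-control cells, with a log2 fold change of -0.78 (SE 0.97, adjusted p = 0.671, and 0.0296 with the block). Cxcr4, the most abundant chemokine receptor, had 8.38, 53.3 and 81.0 CPM in anti-mt-tRF-LeuTAA cells and 3.39, 43.9 and 68.4 CPM in anti-control cells, and passed in neither fit (log2 fold change 0.37, SE 0.75, adjusted p = 0.808).

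**Figure D3:**
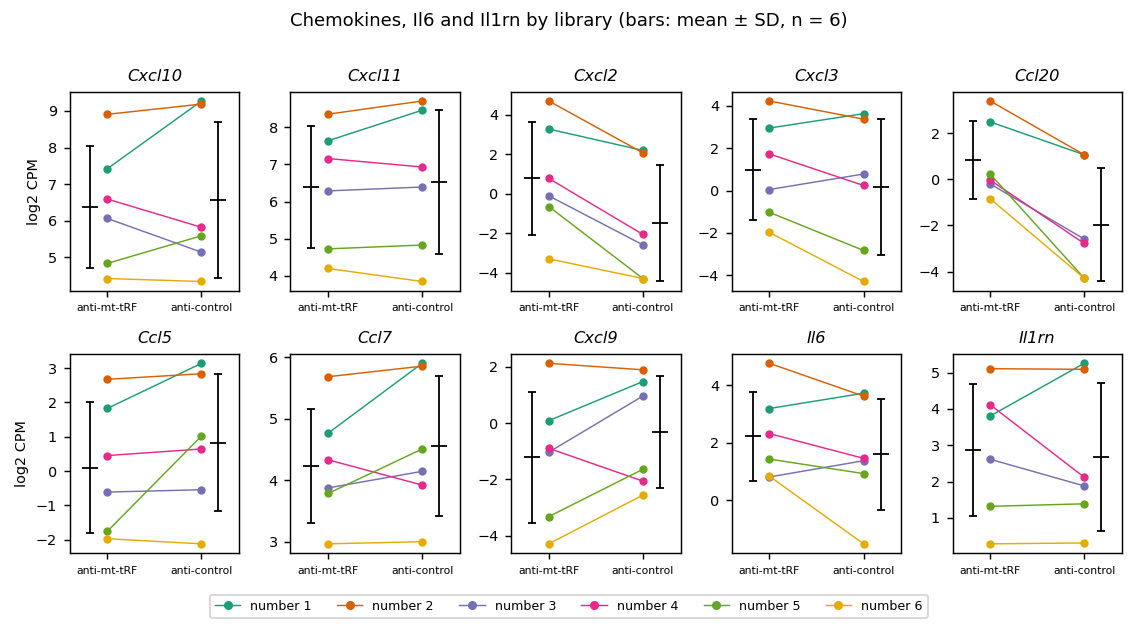
Deposited log2 CPM (vertical axis) of 8 chemokines, Il6 and Il1rn in anti-mt-tRF-LeuTAA (left) and anti-control libraries (right), with lines joining the same number and bars for mean ± SD (n = 6). The genes were chosen after their values were seen; libraries 1 and 2 lie at the top of most panels in both groups, and Ccl20 and Cxcl2 fall to the right in 6 of 6 pairs.

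Il4i1, which breaks down aromatic amino acids, shared both patterns. It had 25.9 and 47.8 CPM in libraries 1 and 2 after inhibition, with 8.87 to 13.8 CPM in the other 4. In anti-control cells, it had 15.6 and 11.9 CPM in libraries 1 and 2 and 0.991 to 1.10 CPM in the other 4. The groups thus overlapped only through the libraries numbered 1 and 2, and the log2 fold change was 2.73 (SE 0.77, adjusted p = 0.0299, and 0.000393 with the block). Without the block, the call did not hold in 6 of 12 leave-one-out fits, where the adjusted p reached 0.0668 on omission of anti-control replicate 5. Il18bp, the secreted binding protein of interleukin-18 and the most abundant of its class, had 15.03, 30.8 and 35.5 CPM in anti-mt-tRF-LeuTAA cells and 15.3, 28.3 and 43.9 CPM in anti-control cells (log2 fold change -0.10, SE 0.28, adjusted p = 0.866).

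Marker sums of cell types were set beside the levels in libraries 1 and 2. The 7 endothelial markers measured summed to 522 and 520 CPM in these libraries after inhibition and to 548 and 400 CPM in anti-control, whereas the others reached at most 263 and 181 CPM. The 4 alpha cell markers summed to 22130 and 3645 CPM in libraries 1 and 2 after inhibition and to 2096 and 2053 CPM in those of anti-control, against at least 20500 and 12770 CPM in the others, so that library 1 after inhibition lay within the range of its group and the other 3 lay below. The 13 myeloid markers measured summed to 152 and 169 CPM in libraries 1 and 2 after inhibition, against 96.1 to 173 CPM in the others. In anti-control, the myeloid sums were 85.3 and 81.5 CPM, against 87.4 to 232 CPM in the others. Stromal sums in libraries 1 and 2 lay within the range of the others in both groups. The part of any of these cells in the chemokine levels was not tested. Of the 18 members highest in libraries 1 and 2 that had a promoter in the table, 8 (44.4%) held a kB match, namely Ccl20, Cxcl2, Cxcl10, Cxcl11, Il6, Il4i1, Il4r and Il1rap, against 2 of the 45 other members (4.44%). This share describes genes picked by their values and was given no test.

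Most members called higher without the block lay downstream of another expressed gene. An upstream neighbour was defined as the nearest gene of the table that ends upstream on the same strand with at least 1 CPM on average in anti-control cells. Such a gene ended within 50 kb of 11 of the 12 higher members, of 27 of the 71 other members (38.0%), of 40.9% of all genes, and of 81.7% of all 799 genes that rose at least 2-fold. The distances for the 11 ran from 0.562 to 34.2 kb. The exception was Il23a, whose nearest such neighbour, Coq10a, ended 68.2 kb away. Of the members called higher only with the block, Cxcl2 and Il17re had such a gene within 50 kb, whereas Ccl20, Tnfsf15, Il16 and Il7 did not. Coordinates are those of the deposited table, build Rnor_6.0.

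Most neighbours of the 11 members called without the block were not called changed themselves. Il17c (chr19:55246926-55248205) followed Zc3h18 by 5.08 kb, and Zc3h18 was itself higher by 0.38 log2 units (adjusted p = 0.000992). Il1rl2 (chr9:47047832-47095831) followed Il1r1 by 11.2 kb, so that a strongly risen and an abundant member lay side by side on the plus strand. Tnfsf13b (chr16:85275678-85306366, minus strand) followed Abhd13 by 8.91 kb, and Il20rb (chr8:108747204-108777717, minus strand) followed Nck1 by 10.1 kb, with log2 fold changes of -0.04 and 0.04 for these neighbours. On the plus strand of chromosome 5, Sdf4, Tnfrsf4 (chr5:173447784-173450474) and Tnfrsf18 (chr5:173460354-173463140) stood in a row with gaps of 3.16 and 9.88 kb, and Sdf4 had a log2 fold change of -0.03. On chromosome 1, Il22ra2 (chr1:15093599-15106954) followed Ifngr1 by 12.7 kb, and the lower gene Il20ra (chr1:15180328-15222785) came 73.4 kb after Il22ra2 on the same strand. Among the 11 neighbours, 3 were called changed, all higher (Zc3h18, Nup62 upstream of Il4i1, and Tnfrsf4). A table of reads per gene does not tell from which promoter an RNA started, and the part of upstream transcription in these values was not tested.

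Calls were also counted by level and neighbour together. Of 15 members under 1 CPM in anti-control cells, 10 had an upstream neighbour and 8 of these 10 were called higher, whereas 0 of the 5 without a neighbour were. Ccl20 was among these 5 and was called with the block. Of 68 members at or above 1 CPM, 3 of 28 with a neighbour and 1 of 40 without were called higher. Of all 1056 genes under 1 CPM in anti-control cells, 48.7% were called higher, 70.1% of those with a neighbour and 21.6% of those without. Genes at 0 reads numbered 4 to 18 per anti-mt-tRF-LeuTAA library and 116 to 196 per anti-control library, so some scarce genes can be in the table only because they were detected after inhibition. The counts of scarce members are therefore a description of listed genes, and nothing is read from them.

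**Figure D4:**
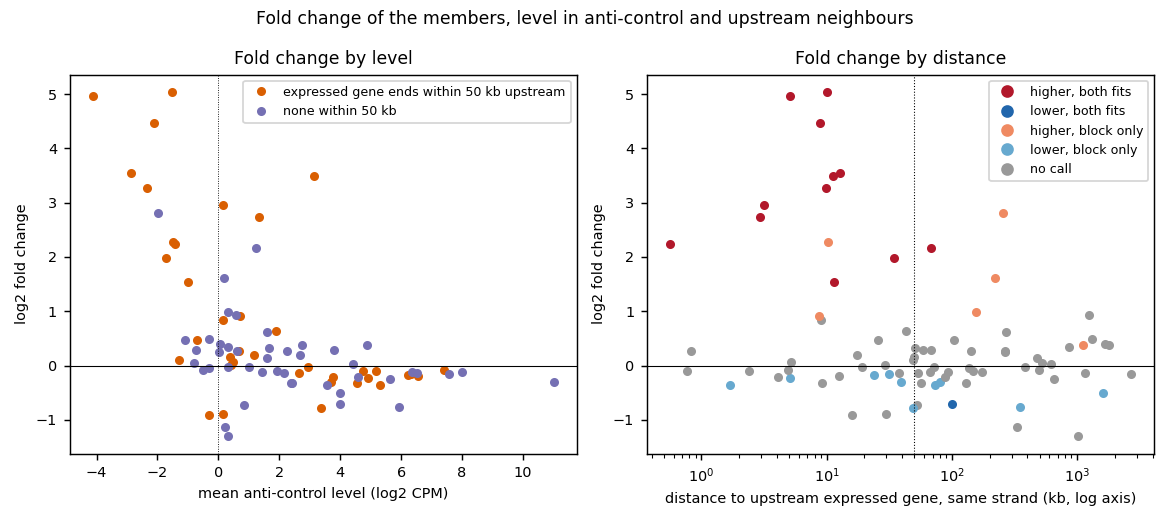
Log2 fold change of the members (vertical axes) against their mean level in anti-control cells in log2 CPM (left) and against the distance to the nearest upstream gene expressed on the same strand in kb, on a log axis (right; dotted line at 50 kb). Orange points in the left panel have a neighbour within 50 kb. In the right panel, 11 of the 12 genes called higher without the block lie left of the dotted line, and members with no such gene upstream are missing.

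Related genes whose symbols fall outside the naming rule were read from 3 lists. Of 44 further cytokines, receptors and chemokine receptors, 31 were measured and 5 were higher and 0 lower (7 and 3 with the block). Among all genes, 10.9% were higher and 4.65% lower (17.6% and 17.7% with the block). Their median log2 fold change was 0.04, against -0.04 for all genes. The 3 with the smallest adjusted p were the death ligand Faslg (log2 fold change 5.25, SE 0.31, adjusted p = 1.24e-07), the ciliary neurotrophic factor Cntf (1.73, SE 0.16, adjusted p = 6.44e-06) and oncostatin M, Osm (2.29, SE 0.26, adjusted p = 3.30e-05).

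No signalling component downstream of these receptors was called at least 2-fold changed without the block, where 5.82% of all genes were called at least 2-fold higher. With the block, Nfkbia and Tnfaip3 were, both from the NF-kB list below and named once their values were known. Nfkbia had a log2 fold change of 1.26 (SE 0.52, adjusted p = 0.132, and 7.35e-05 with the block). That of Tnfaip3 was 1.18 (SE 0.58, adjusted p = 0.204, and 0.00105 with the block). Both were higher in 6 of 6 pairs. Of 26 measured JAK-STAT genes of 27, 0 were higher and 3 were lower (4 and 8 with the block), with a median log2 fold change of -0.0042. Lower genes included the transcription factor Stat5a (log2 fold change -0.52, SE 0.11, adjusted p = 0.00599) and the kinase Jak3 (-0.48, SE 0.10, adjusted p = 0.00584). Of 39 measured genes of 40 between the interleukin-1 or TNF receptors and NF-kB, 2 were higher and 1 was lower (11 and 6 with the block), with a median of 0.11. The shares over all genes, for both lists, were 10.9% higher and 4.65% lower (17.6% and 17.7% with the block). Map3k14, the kinase of the non-canonical NF-kB pathway, had a log2 fold change of 0.85 (SE 0.09, adjusted p = 2.52e-05), the adaptor Traf2 of 0.45 (SE 0.12, adjusted p = 0.0248), and the interleukin-1 receptor kinase Irak1 of -0.22 (SE 0.07, adjusted p = 0.0356).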

How the data were processed

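Stranded total RNA libraries of 12 samples (6 anti-mt-tRF-LeuTAA and 6 anti-control, grouped by title) were sequenced. Tools listed in the submitters' processing notes are STAR 2.5.3a, HTSeq 0.9.1, cutadapt 1.8 and limma 3.44.3, with build Rnor_6.0, and the sources used here do not state whether reads were counted by strand. For 13733 detected genes the authors deposited log2 CPM, which hold a prior count of 1 in proportion to library size. Further columns and tables hold the authors' group means, fold changes and p-values and were not used. Whole reads were recovered from the log2 values for 100% of values (tolerance 0.01 reads, largest deviation 5.47e-08), and libraries held 16.4 to 23.4 M reads.

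Groups were compared with limma 3.58.1 (R 4.3.3) on the deposited values, with an intensity trend, group as the only term and Benjamini-Hochberg adjustment over all genes. A count test had been foreseen for a table of counts, and since the values were log2, limma-voom on recovered reads served only as an alternative. A 2nd fit had the replicate number as a block. Same-numbered libraries correlated by 0.474 to 0.763 after removal of group means (median 0.628), and 6 of 6 anti-mt-tRF-LeuTAA and 5 of 6 anti-control libraries correlated best with their own number. The labels do not state that a number is the same rat in both groups. The study reports 6 rats, and the blocked fit gave its counts of 2412 higher and 2431 lower genes. P-values measure the spread between these libraries. Replicates differed beyond counting noise (chi-square of 18.7 to 254 per degree of freedom), and none was a repeat.

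Fold changes on the log2 scale understate those of scarce genes, and levels were not corrected for gene length, so they were not compared between genes as amounts of transcript. The scripts' fits were tested on simulated data. Alternatives were other scalings, prior counts and filters, limma without trend, voom, and fits without single libraries or pairs. Named genes were all called members, the 10 with the largest change among those called only with the block, and the most abundant of each role, and from the lists the called genes with the smallest adjusted p, of which 1 is not reported here. Members and lists were chosen with earlier results of these data known. Promoters were read from RefSeq tables with Python 3.11.15.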

Additional observations from a re-analysis of the deposited data

Results flagged for a closer look

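Of the 62 groups of 6 libraries examined for 31 named genes, 4 held a library whose gap to its nearest neighbour exceeded Dixon's 95% critical value, and chance flags about 1 in 20 groups. Il17c stood at -3.291 log2 CPM in anti-control replicate 2, which is 1 read, while the other 5 anti-control libraries stood at -4.29, which is 0 reads. Il1rl2 stood at 4.238 log2 CPM in anti-control replicate 5, against at most 3.101 in the other anti-control libraries, and still below every anti-mt-tRF-LeuTAA library. Tnfrsf4 stood at 2.231 log2 CPM in anti-mt-tRF-LeuTAA replicate 5, against at least 3.084 in the others of its group, and still above every anti-control library. Cxcr4 stood at 1.782 log2 CPM in anti-control replicate 6, against at least 4.817 in the others of its group, and without this library the sign of its log2 fold change turned (-0.251).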

How the results depend on the processing

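The 12 higher members all passed with the replicate block, without trend, with library size alone, with voom and with a prior count of 5, and 10 of them passed with quantile normalization. Over genes at or above the 25th percentile of mean level, where 32 members were tested, 2 were called higher, both at least 2-fold, because 2 of the 12 were tested. Il17c, Il22ra2, Tnfrsf18, Il20rb, Tnfsf13b, Tnfrsf4, Il1rl2, Il23a and Tnfrsf25 passed in each of the 12 fits that leave out a library, in which 11 to 13 members were higher. Il9r lost its call without anti-mt-tRF-LeuTAA replicate 4 (adjusted p = 0.0516), Il17rb in 3 fits (up to 0.055) and Il4i1 in 6 (up to 0.0668). Quantile normalization lowered the log2 fold changes of Il22ra2, Tnfrsf18, Tnfrsf25, Il9r and Il17rb to 2.27, 2.22, 1.36, 0.70 and 0.89, and a prior count of 5 lowered those of Il22ra2, Tnfrsf18, Ccl20 and Cxcl2 to 2.35, 2.30, 1.81 and 1.55. With the replicate block, 11 members were lower in place of 1, and without single libraries and without the block 1 to 2 were, the 2 without anti-mt-tRF-LeuTAA replicate 2. In the blocked fit without single pairs, chosen after seeing the data, 16 to 19 members were higher and 3 to 10 lower, with 5 without pair 3, 5 without pair 5 and 3 without pair 6, so the lower calls made only with the block rest on few pairs. Il20ra, Il1rap and Il17ra were lower in each of these fits. Without the libraries numbered 1 and 2, also chosen afterwards, 12 members were higher, 10 of them the same genes, with Il9r (adjusted p = 0.159) and Il17rb (0.0926) lost. Without single libraries the sign turned for Cxcr4 (-0.251 to 0.808), Cxcl10 (-0.692 to 0.358) and Il18bp (-0.262 to 0.0524), none of them called; the cause was not tested. Depth limits the scarcest genes, for which 1 read stood for 0.045 to 0.0594 CPM.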
